A study of Mus musculus with 9 samples.

Results

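Transcripts of 10 growth factor and cytokine receptor chains of dendritic cells (DC) were compared among the DC subsets of the mouse spleen. Flt3, Kit and Csf1r encode receptor tyrosine kinases. Csf2ra, Csf2rb and Csf2rb2 encode chains of the receptors for GM-CSF and interleukin (IL)-3, and Csf3r encodes the receptor for G-CSF. Il7r, Il2rg and Il15ra encode chains of the receptors for IL-7 and IL-15. The genes were picked by name in the deposited count table, where each symbol was listed once, so they were 10 of 39179 genes. All 10 had enough counts to be among the 13819 genes tested.

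These receptors connect DC to the factors that make and keep them. The ligand of FLT3 drives the development of conventional and plasmacytoid DC from bone marrow progenitors, KIT is the stem cell factor receptor of early progenitors and mast cells, and CSF1R is the receptor for CSF-1 and IL-34 on which monocytes and macrophages depend. In mice the common beta chain (Csf2rb) serves the receptors for GM-CSF, IL-3 and IL-5 together with a ligand-specific alpha chain, whereas its close relative Csf2rb2 pairs with the IL-3 receptor alone. The common gamma chain (Il2rg) is shared by the receptors for IL-2, IL-4, IL-7, IL-9, IL-15 and IL-21, and IL-7 binds a pair of Il7r and Il2rg. IL-15 receptor alpha (Il15ra) holds IL-15 at the cell surface for neighbouring lymphocytes.

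RNA came from cDC1, cDC2 and pDC of unstimulated, wild-type C57BL/6J mice at steady state, with 3 libraries per subset and 9 in all. The cDC1 and cDC2 are conventional DC, sorted as CD8-positive and CD8-negative cells, and pDC are plasmacytoid DC. Each library was made from pooled spleens of 15 to 17 young adult mice, so it averages over animals, and differences between animals cannot be seen. Cells were enriched by removing cells that bore lineage markers, among them CD3, Thy-1, Ly6G/Ly6C and TER-119, and were sorted on CD11c, CD45RA, CD8, CD11b and CD49b. Libraries with the same replicate number carry the same date code in the 3 subsets.

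Counts on genes summed to between 15806597 and 32453789 per library, and the floor of 3 counts lay between 0.0908 and 0.203 CPM, for counting error only. Levels are given throughout as CPM, the TMM-normalized count of a gene scaled to library size. The subset labels were checked against marker genes. The summed CPM of 6 pDC markers ran from 11828 to 12663 in pDC and from 219 to 324 in the conventional DC. The 7 cDC1 markers summed to between 5810 and 6677 CPM in cDC1, between 407 and 540 in cDC2 and between 4650 and 5202 in pDC, where Irf8 was higher than in cDC1. The 6 cDC2 markers summed to between 1834 and 1979 CPM in cDC2, between 110 and 176 in cDC1 and between 1895 and 2056 in pDC, where Cd4 made up most of the sum. These sums set the conventional subsets apart from each other but not from pDC. Of single markers, Xcr1, a chemokine receptor of cDC1, ran from 929 to 947 CPM in cDC1, from 33.5 to 64.9 in cDC2 and from 1.37 to 8.90 in pDC. Esam, an adhesion molecule of cDC2, ran from 61.2 to 79.4 CPM in cDC2, from 10.3 to 14.8 in cDC1 and from 0.203 to 2.42 in pDC. Markers of other cells were present at levels that differed between lists. Over the libraries, the 8 red pulp macrophage markers summed to between 55.8 and 375 CPM and the 5 B cell markers to between 56.4 and 99.7. The 7 markers of NK and innate lymphoid cells summed to between 8.63 and 80.4 CPM. The 6 monocyte markers summed to between 128 and 3053 CPM, with Ly6c2 as most of the sum in pDC. The 8 neutrophil markers summed to between 6.13 and 75.3 CPM over the libraries, with Ngp at up to 27.3 and Ly6g at most 0.319, and the 6 T cell markers to between 12.6 and 40.6 CPM, with Cd5 at up to 32.7 and Cd3e at most 0.943. In bulk RNA, fewer cells that carry a transcript and less of it per cell cannot be told apart.

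The beta chain genes Csf2rb and Csf2rb2 are near-identical copies, and their sequences are shown because the reads were only 75 bases long. Both lie on chromosome 15 of GRCm38 (GENCODE M21), Csf2rb on the plus strand from 78325752 to 78353847 and Csf2rb2 on the minus strand from 78282507 to 78305721, with 20030 bases between them. Their coding sequences are 2688 and 2634 bases long and were 95.2% identical over 2628 aligned bases, with a longest identical run of 242 bases. In one stretch, from coding base 485 to 559 of Csf2rb and from 488 to 562 of Csf2rb2, a read of 75 bases cannot tell the copies apart.
Csf2rb and Csf2rb2, identical stretch: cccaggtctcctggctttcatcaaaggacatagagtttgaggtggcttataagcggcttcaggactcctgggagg
In another, from coding base 316 to 390 of Csf2rb and from 319 to 393 of Csf2rb2, the copies differ at 14 bases, which stand in capitals.
Csf2rb, differing stretch: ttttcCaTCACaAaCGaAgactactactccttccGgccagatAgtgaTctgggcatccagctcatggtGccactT
Csf2rb2, differing stretch: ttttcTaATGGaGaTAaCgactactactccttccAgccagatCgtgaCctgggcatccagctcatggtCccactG
Of all windows of 75 bases in the annotated transcripts, 518 of 7243 in Csf2rb (7.15%) and 518 of 4872 in Csf2rb2 (10.6%) occurred in both genes. A read from such a window cannot be assigned to either copy by its sequence, so the levels of these genes are uncertain. The shares describe each gene's own windows and set no limit on reads gained from the other copy. Such reads would weigh more on the less abundant copy.

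The promoters of Il7r and Csf2rb2 are shown because these were the receptors with the largest excess in pDC over both conventional subsets, and because both held a match to the STAT motif TTCNNNGAA in the 250 bases before the start site. STAT proteins carry the signal of these receptors to DNA. The 150 bases before the start (RefSeq, GRCm38.p6) are given 5′ to 3′ with the match in capitals, at chr15:9529877-9530026 on the minus strand for Il7r and at chr15:78305722-78305871 on the minus strand for Csf2rb2. The RefSeq start of Il7r lies inside the gene as GENCODE M21 gives it, so that the whole Il7r window falls within the GENCODE gene, in an intron and in no annotated exon, and is upstream of the RefSeq start only.
Il7r: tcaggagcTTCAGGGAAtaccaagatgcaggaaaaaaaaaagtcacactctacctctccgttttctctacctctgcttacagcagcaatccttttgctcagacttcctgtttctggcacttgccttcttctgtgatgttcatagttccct
Csf2rb2: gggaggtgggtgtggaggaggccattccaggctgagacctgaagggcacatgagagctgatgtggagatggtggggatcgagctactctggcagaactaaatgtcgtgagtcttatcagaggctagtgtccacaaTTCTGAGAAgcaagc
The match lay 142 to 134 bases before the start in Il7r and 15 to 7 bases before it in Csf2rb2. Promoters of 8 of the 10 receptor genes were searched on both strands. Csf1r was left out of the search and Csf2rb had no promoter listed, so the counts over the 8 say nothing of these genes. Of the 8, 2 held the STAT motif, and 7.02% of all 32851 promoters of the same length held it. The PU.1 core GAGGAA was in 4 of the 8 (Csf2ra, Csf2rb2, Csf3r and Kit) and in 23.3% of all. The RUNX motif TGTGGT was in Il2rg and in 14% of all, and the E-box CAGGTG was in Il15ra and in 17.2% of all. The motif AGATAA of GATA factors, held by 9.99% of all, was in 0 of the 8, as was the composite GGAANNGAA of IRF and ETS factors, held by 6.99% of all. No match of one motif overlapped a match of another, and a match is a run of letters and not a bound site.

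All 10 receptors differed among the 3 subsets (adjusted p under 0.05 in edgeR's quasi-likelihood test over the subset term), as did 56% of all genes tested. In pDC against cDC1, 8 of the 10 passed the threshold. Of these, 4 were higher in pDC (Il7r, Csf2rb2, Il2rg and Csf2rb) and 4 were lower (Kit, Csf2ra, Il15ra and Flt3), beside 48.6% of all genes in either direction, 24.3% higher and 24.4% lower. In pDC against cDC2, 8 passed, with 3 higher in pDC (Il7r, Csf2rb2 and Csf2rb) and 5 lower (Kit, Csf1r, Csf3r, Csf2ra and Il15ra), beside 45.8% of all genes, 22.5% higher and 23.3% lower. In cDC2 against cDC1, 7 passed, with 5 higher in cDC2 (Csf3r, Csf1r, Il2rg, Il7r and Kit) and 2 lower (Flt3 and Csf2ra), beside 24.4% of all genes, 12.7% higher and 11.7% lower. Without replicate 1 in every subset, which leaves 2 libraries per subset, 2 of these 7 passed. Of all genes tested, 1207 of 13548 passed in that fit, against 3370 of 13819 with all libraries. The median size of the log2 difference over the 10 receptors was 2.02 in pDC against cDC1 and 2.00 in pDC against cDC2, beside 0.63 and 0.59 over all genes tested, and it was 0.54 beside 0.36 in cDC2 against cDC1.

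**Figure D1:**
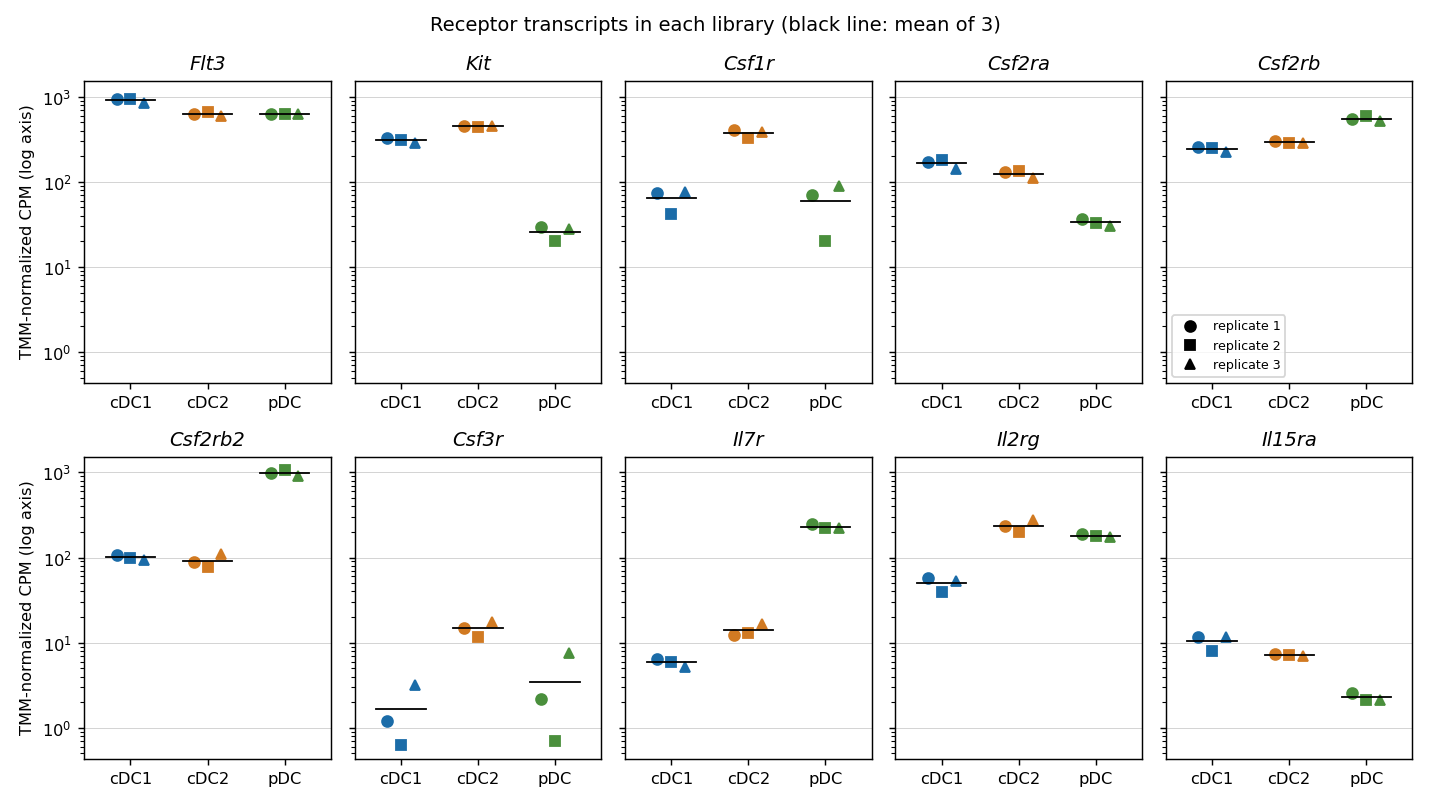
TMM-normalized CPM (log axis) of the 10 receptor genes in each of the 9 libraries, with 1 panel per gene, colours for the subsets, symbols for the replicate numbers and a black line at the mean of 3 libraries. Flt3 stayed between 586 and 945 CPM in all libraries, Il7r and Csf2rb2 were highest in pDC, and Kit, Csf2ra and Il15ra were lowest there.

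Flt3, the receptor tyrosine kinase that marks DC and their progenitors (ENSMUSG00000042817, chr5:147330741-147400489, minus strand), was abundant in every library. Flt3 reached 945, 927 and 836 CPM in cDC1 replicates 1, 2 and 3, 635, 655 and 586 CPM in cDC2, and 626, 632 and 632 CPM in pDC. The cDC1 libraries stood above all others, and the cDC2 and pDC libraries overlapped. Flt3 was lower in pDC than in cDC1 by a log2 difference of -0.52 (SE 0.085, adjusted p = 0.000677, edgeR) and lower in cDC2 than in cDC1 by -0.53 (SE 0.085, adjusted p = 0.00144). Without replicate 1, which leaves 2 libraries per subset, the second of these had an adjusted p of 0.0898. Between pDC and cDC2 the difference was 0.01 with a 95% interval from -0.18 to 0.20 (adjusted p = 0.927), and its sign changed with scaling by library size only (-0.01). The sizes were small next to those of other genes, since 56.8% of all genes tested differed more between pDC and cDC1. Per kilobase of exon, the level of Flt3 was 146 ± 9.42 CPM for cDC1, 101 ± 5.76 for cDC2 and 102 ± 0.548 for pDC (SD, n = 3), and between 2.86% and 3.91% of the genes tested had a higher level in a subset.

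Kit, the stem cell factor receptor (ENSMUSG00000005672, chr5:75574916-75656722, plus strand), was a transcript of the conventional DC. It reached 325, 312 and 287 CPM in cDC1, 454, 444 and 448 CPM in cDC2, and 29.6, 20.2 and 28.2 CPM in pDC. The 3 subsets did not overlap, and the pDC libraries were lowest by a wide gap. Kit was lower in pDC than in cDC1 by a log2 difference of -3.57 (SE 0.15, adjusted p = 1.07e-07), which is 11.8-fold, and lower than in cDC2 by -4.11 (SE 0.15, adjusted p = 8.85e-08), which is 17.2-fold. The excess of cDC2 over cDC1 was 1.46-fold (log2 0.54, SE 0.14, adjusted p = 0.0155). That call was lost in 5 of 20 alternatives, when cDC1 replicate 3 (adjusted p = 0.0693), cDC2 replicate 1 (0.0538), cDC2 replicate 3 (0.0511), all of replicate 1 (0.138) or all of replicate 3 (0.0619) was left out. KIT is also a receptor of mast cells and early progenitors. The summed level of 6 mast cell and basophil markers ran from 0.558 to 4.63 CPM in pDC, from 1.38 to 2.71 in cDC1 and from 7.46 to 16.8 in cDC2, where Hdc made up most of the sum (6.18 to 13.3 CPM) and Ms4a2 was at most 0.159 CPM. The 6 early progenitor markers summed to 23.5 to 27.9 CPM in cDC1, 30.5 to 38.6 in cDC2 and 25.7 to 27.5 in pDC, so both lists were highest in cDC2, as was Kit. The part of such cells in the level of Kit was not tested.

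Set side by side as levels per kilobase of exon, Kit stood at a mean of 0.237 times the level of Flt3 in cDC1 (0.233 to 0.239), 0.499 times in cDC2 (0.470 to 0.530) and 0.0286 times in pDC (0.0222 to 0.0328). The ratio did not overlap between any pair of subsets.

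Csf2ra encodes the alpha chain that binds GM-CSF (ENSMUSG00000059326, chr19:61223957-61228429, minus strand). It reached 173, 182 and 142 CPM in cDC1, 130, 133 and 110 CPM in cDC2, and 36.9, 32.5 and 30.7 CPM in pDC. All pDC libraries were far below the others, and cDC1 and cDC2 lay next to each other without overlap. In pDC Csf2ra was lower by a log2 difference of -2.31 against cDC1 (SE 0.14, adjusted p = 8.45e-07) and by -1.89 against cDC2 (SE 0.14, adjusted p = 2.77e-06). Between the conventional subsets it was lower in cDC2 by -0.42 (SE 0.13, adjusted p = 0.0443). That call was lost in 12 of 20 alternatives, with adjusted p from 0.0511 to 0.294, among them scaling by library size only (0.147), no filter on low counts (0.0613) and the fit of the 6 conventional libraries alone (0.0511). The left-out libraries that ended it were cDC1 replicates 1 (0.140) and 2 (0.159), cDC2 replicates 1 (0.0887), 2 (0.0700) and 3 (0.111), pDC replicates 1 (0.0524) and 2 (0.0526), and all of replicate 1 (0.294) or 2 (0.256).

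The beta chains ran the other way. Csf2rb (ENSMUSG00000071713), the chain shared by the receptors for GM-CSF, IL-3 and IL-5, reached 259, 253 and 225 CPM in cDC1, 301, 283 and 286 CPM in cDC2, and 552, 593 and 513 CPM in pDC. All pDC libraries stood above all conventional ones. Csf2rb was 2.25-fold higher in pDC than in cDC1 (log2 1.17, SE 0.096, adjusted p = 5.85e-06) and 1.90-fold higher than in cDC2 (log2 0.93, SE 0.095, adjusted p = 3.13e-05). The cDC2 libraries were above the cDC1 libraries by a log2 difference of 0.24, with a 95% interval from 0.03 to 0.45 before adjustment and an adjusted p of 0.0974. This passed with the replicate number as a block (adjusted p = 0.0178) and with scaling by library size only (log2 0.35, adjusted p = 0.0302).

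Csf2rb2 (ENSMUSG00000071714), the chain that serves IL-3 alone, had a steeper difference. It reached 108, 99.8 and 92.8 CPM in cDC1, 88.4, 77.5 and 110 CPM in cDC2, and 982, 1053 and 911 CPM in pDC. The conventional libraries overlapped, and every pDC library was far above them. The difference was 9.80-fold against cDC1 (log2 3.29, SE 0.14, adjusted p = 1.32e-07) and 10.7-fold against cDC2 (log2 3.42, SE 0.15, adjusted p = 1.56e-07). Between cDC2 and cDC1 it was -0.13 with a 95% interval from -0.42 to 0.17 (adjusted p = 0.570), and without replicate 3 it was -0.35 (adjusted p = 0.0324). With the counts of both copies summed into 1 gene before the fit, which removes reads assigned to the wrong copy but restores none that were left uncounted, the pair was higher in pDC by 2.15 against cDC1 (adjusted p = 1.53e-07) and by 2.01 against cDC2 (adjusted p = 2.37e-07) on the log2 scale, and 0.14 higher in cDC2 than in cDC1 (adjusted p = 0.327).

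The balance of the chains therefore changed between subsets when levels were compared per kilobase of exon. Csf2rb stood at 0.588 ± 0.040 times the level of Csf2ra in cDC1 (SD, n = 3), 0.930 ± 0.095 times in cDC2 and 6.56 ± 0.642 times in pDC. Csf2rb2 stood at 0.626 ± 0.017 times the level of Csf2rb in cDC1 and 0.486 ± 0.089 times in cDC2, and at 2.73 ± 0.002 times in pDC, where it was the more abundant copy. The sizes of these ratios, but not their order between subsets, depend on the length used. Merged exons held 7277 bases for Csf2rb and 4740 for Csf2rb2, and the principal transcripts hold 4900 and 4740. The SD does not cover that choice. In pDC Csf2rb2 stood at 207 ± 15.0 CPM per kilobase of exon, and 1.87% of all genes tested had a higher level. Il3ra, the alpha chain of the IL-3 receptor, reached 16.1, 15.5 and 14.4 CPM in cDC1, 18.0, 17.6 and 14.9 CPM in cDC2, and 34.9, 42.1 and 33.6 CPM in pDC, and is described here as the partner of Csf2rb2. It was higher in pDC by a log2 difference of 1.26 against cDC1 (SE 0.14, adjusted p = 5.42e-05) and 1.13 against cDC2 (SE 0.14, adjusted p = 0.000123). The ratio of Csf2rb2 to Il3ra per kilobase was 16.8 ± 0.998 in pDC, against 4.09 ± 0.091 in cDC1 and 3.48 ± 0.993 in cDC2. Il5ra, the alpha chain for IL-5, was over 3 counts in 1 of the 9 libraries.

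**Figure D2:**
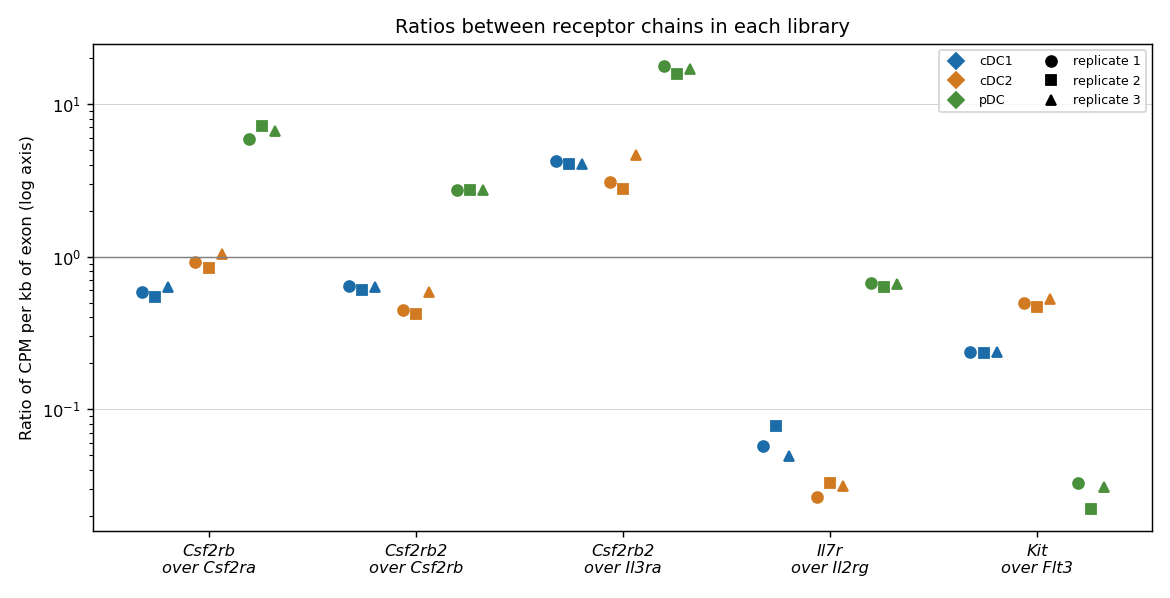
Ratios between the levels of paired chains per kilobase of exon (log axis) in each library, with colours for the subsets, symbols for the replicate numbers and a grey line at a ratio of 1. Csf2rb over Csf2ra, Csf2rb2 over Csf2rb, Csf2rb2 over Il3ra and Il7r over Il2rg were highest in pDC (means of 6.56, 2.73, 16.8 and 0.654), and Kit over Flt3 was lowest there (mean of 0.0286).

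Il7r, the IL-7 receptor alpha chain (ENSMUSG00000003882, chr15:9505788-9530176, minus strand), had the largest difference of the 10 receptors. It reached 6.48, 6.01 and 5.15 CPM in cDC1, 12.2, 12.9 and 16.6 CPM in cDC2, and 249, 222 and 222 CPM in pDC. The subsets did not overlap, and the pDC libraries stood far above the others. The difference was 39.1-fold against cDC1 (log2 5.29, SE 0.17, adjusted p = 3.35e-08) and 16.6-fold against cDC2 (log2 4.06, SE 0.16, adjusted p = 9.70e-08), and 3.94% of all genes tested differed more between pDC and cDC1. The level in cDC2 was 2.35-fold that in cDC1 (log2 1.23, SE 0.15, adjusted p = 0.000239). IL-7 receptor is also a mark of T cells and innate lymphoid cells. The 6 T cell markers summed to 16.1 to 21.3 CPM in pDC, 12.6 to 17.8 in cDC1 and 29.6 to 40.6 in cDC2, and the 7 markers of NK and innate lymphoid cells summed to 9.78 to 41.8 CPM in pDC, 8.63 to 27.0 in cDC1 and 21.5 to 80.4 in cDC2. In the pDC libraries Gzma reached 25.3 CPM, Cd5 11.2, Prf1 8.42, Lat 8.19 and Klrb1c 4.30, whereas Cd3e was at most 0.943 and Gata3 at most 0.203. Both sums were highest in cDC2 and Il7r in pDC, and the part of such cells in the level of Il7r was not tested.

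Il2rg, the common gamma chain (ENSMUSG00000031304, chrX:101264378-101268255, minus strand), was low in cDC1. It reached 57.9, 39.6 and 53.2 CPM in cDC1, 237, 201 and 273 CPM in cDC2, and 189, 181 and 173 CPM in pDC. The cDC1 libraries lay below all others, and cDC2 and pDC lay close without overlap. Il2rg was 4.71-fold higher in cDC2 than in cDC1 (log2 2.24, SE 0.16, adjusted p = 1.29e-05) and 3.60-fold higher in pDC than in cDC1 (log2 1.85, SE 0.16, adjusted p = 9.50e-06). Between pDC and cDC2 the difference was -0.39 (SE 0.16, adjusted p = 0.0690). It passed with the replicate number as a block (-0.37, adjusted p = 0.0186), in the fit of the 6 libraries of these subsets (adjusted p = 0.0461), and without cDC1 replicate 2 (0.0363), cDC2 replicate 2 (0.0393) or all of replicate 2 (0.0426). On the same strand, 728 exon bases of Il2rg (30.5%) overlap the gene Gm20489, and 656 of its 2525 windows of 75 bases (26%) occur there too. Gm20489 is listed at 0 counts in all 9 libraries, and how reads in the overlap were counted is not given in the sources used here, so the level of Il2rg is uncertain by that share.

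Il7r therefore stood at a mean of 0.654 times the level of Il2rg per kilobase of exon in pDC (0.629 to 0.674), against 0.0615 times in cDC1 (0.0495 to 0.0777) and 0.0302 times in cDC2 (0.0265 to 0.0329). Neighbouring subsets in this order did not overlap.

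Il15ra, which presents IL-15 to other cells (ENSMUSG00000023206, chr2:11705290-11734317, plus strand), was low in all subsets and lowest in pDC. It reached 11.8, 8.09 and 11.7 CPM in cDC1, 7.39, 7.14 and 7.07 CPM in cDC2, and 2.57, 2.13 and 2.12 CPM in pDC. The 3 subsets did not overlap. Il15ra was lower in pDC by a log2 difference of -2.20 against cDC1 (SE 0.23, adjusted p = 3.16e-05) and of -1.65 against cDC2 (SE 0.23, adjusted p = 0.000226). The conventional subsets differed by -0.54, with a 95% interval from -1.03 to -0.06 before adjustment (adjusted p = 0.102). Its ligand gene followed the same order of means. Il15 reached 14.9, 11.4 and 11.7 CPM in cDC1, 6.47, 5.88 and 1.75 CPM in cDC2, and 0.575, 0.101 and 0 CPM in pDC. Il15 was lower in pDC than in cDC1 by a log2 difference of -5.52 (SE 0.79, adjusted p = 0.000274).

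**Figure D3:**
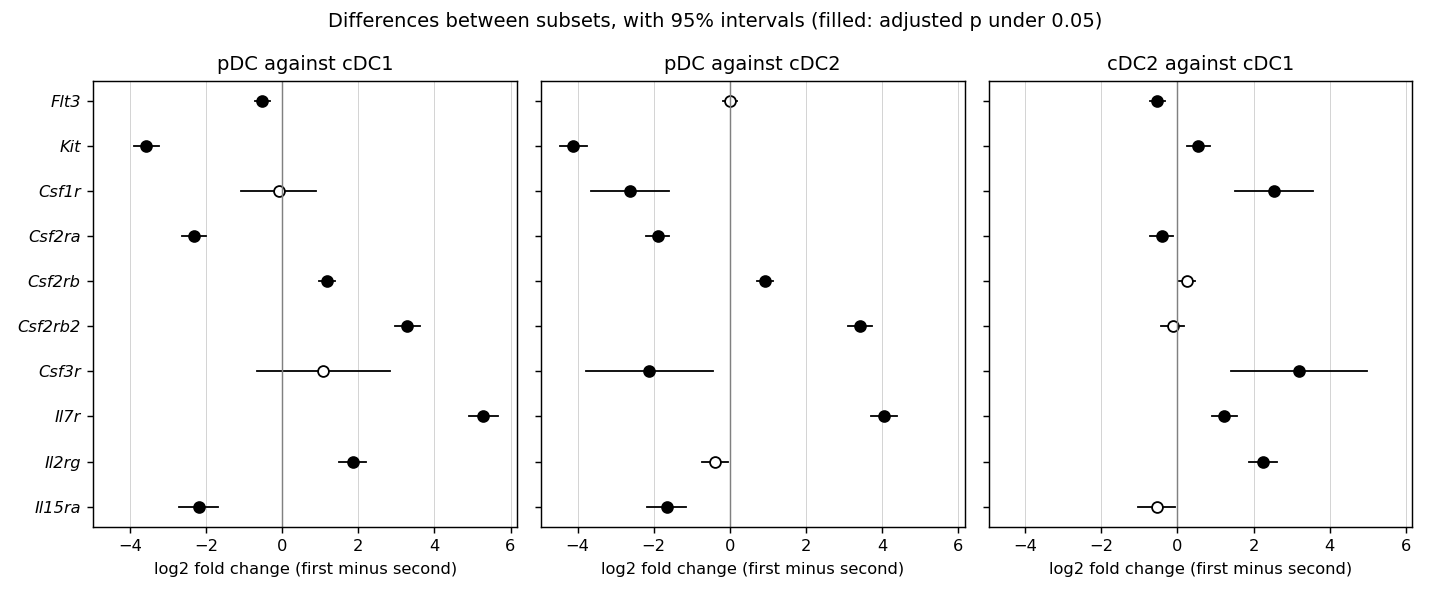
Log2 differences of the 10 receptor genes in the 3 comparisons between subsets, with 95% intervals before adjustment; filled points passed an adjusted p of 0.05 in edgeR's test. Il7r and Kit lay farthest from 0 in the pDC comparisons (5.29 and -4.11 at the extremes), and Csf1r and Csf3r had the widest intervals.

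Csf1r, the receptor for CSF-1 and IL-34 (ENSMUSG00000024621, chr18:61100598-61132149, plus strand), was highest in cDC2. It reached 73.6, 41.8 and 76.7 CPM in cDC1, 401, 329 and 383 CPM in cDC2, and 70.4, 20.4 and 89.1 CPM in pDC. The cDC2 libraries stood above all others, whereas cDC1 and pDC overlapped and replicate 2 was the lowest of each subset. Csf1r was 5.80-fold higher in cDC2 than in cDC1 (log2 2.54, SE 0.46, adjusted p = 0.00280) and 6.19-fold higher than in pDC (the log2 difference of pDC against cDC2 was -2.63, SE 0.46, adjusted p = 0.00109). Between pDC and cDC1 it was -0.09 with a wide 95% interval, from -1.07 to 0.88 (adjusted p = 0.877), and the sign changed without cDC1 replicate 1 (0.02), cDC1 replicate 3 (0.01), pDC replicate 2 (0.29) or all of replicate 2 (0.06). The call between cDC2 and cDC1 was lost without all of replicate 1 (2.59, adjusted p = 0.0612). Of its exon bases, 873 (15.1%) lie opposite to Hmgxb3, which had 349 to 961 counts per library, and whether counting used strand is not given in the sources used here.

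Csf3r, the G-CSF receptor of neutrophils (ENSMUSG00000028859, chr4:126024550-126044440, plus strand), was the least abundant of the 10 receptors in cDC1 per kilobase of exon (0.463 CPM). The level was 1.20, 0.626 and 3.18 CPM in cDC1, 15.0, 11.8 and 17.4 CPM in cDC2, and 2.18, 0.710 and 7.48 CPM in pDC. All cDC2 libraries stood above all others, and cDC1 and pDC overlapped. Csf3r was higher in cDC2 than in cDC1 by a log2 difference of 3.20 (SE 0.80, adjusted p = 0.0154) and lower in pDC than in cDC2 by -2.11 (SE 0.75, adjusted p = 0.0420). The first call was lost without cDC1 replicate 1 (adjusted p = 0.0663), cDC1 replicate 2 (0.0576) or all of replicate 1 (0.190). The second was lost without cDC1 replicate 1 (0.0569), cDC2 replicate 1 (0.0897), cDC2 replicate 2 (0.0641), cDC2 replicate 3 (0.0941), pDC replicate 1 (0.124), pDC replicate 2 (0.0778), all of replicate 1 (0.265) or all of replicate 2 (0.0813). Between pDC and cDC1 the difference was 1.08, with a 95% interval from -0.66 to 2.83 (adjusted p = 0.283), and it was -0.06 without pDC replicate 3.

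Levels of Csf1r and Csf3r moved with markers of other spleen cells from library to library. The 8 neutrophil markers summed to 28.1, 8.13 and 38.7 CPM in cDC1 replicates 1, 2 and 3, to 52.6, 28.7 and 75.3 CPM in cDC2, and to 48.2, 6.13 and 61.4 CPM in pDC. Replicate 2 was the lowest and replicate 3 the highest of each subset, as for Csf3r. The 8 red pulp macrophage markers in the table summed to 228, 158 and 181 CPM in cDC1, 375, 195 and 303 CPM in cDC2, and 181, 55.8 and 211 CPM in pDC, and replicate 2 was again the lowest of each, as for Csf1r. Vcam1 and Hmox1 made up much of this sum and did not separate cDC2, whereas C1qa (28.0 to 61.1 CPM), C1qb (29.4 to 58.9), C1qc (25.2 to 58.0) and Spic (14.0 to 16.3) were higher in every cDC2 library than in any other, where they reached at most 25.0, 26.0, 22.6 and 8.45 CPM. The sum leaves out Emr1, the F4/80 gene, which stood at 344 CPM in cDC2 and 14.0 in each of the others. The 6 monocyte markers summed to 128 to 240 CPM in cDC1, 360 to 449 in cDC2 and 2214 to 3053 in pDC, where Ly6c2 made up most of the sum. Ly6g was at most 0.319 CPM in any library, and Fcgr1 ran from 0.417 to 7.07 CPM. The part of such cells in the levels of Csf1r and Csf3r was not tested. With replicate 2 left out of every subset, Csf1r was higher in cDC2 than in cDC1 by 2.37 (adjusted p = 0.000206) and lower in pDC than in cDC2 by -2.31 (adjusted p = 5.73e-05). That fit keeps the libraries with the higher macrophage and neutrophil sums, so it is no test of the part of such cells.

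**Figure D4:**
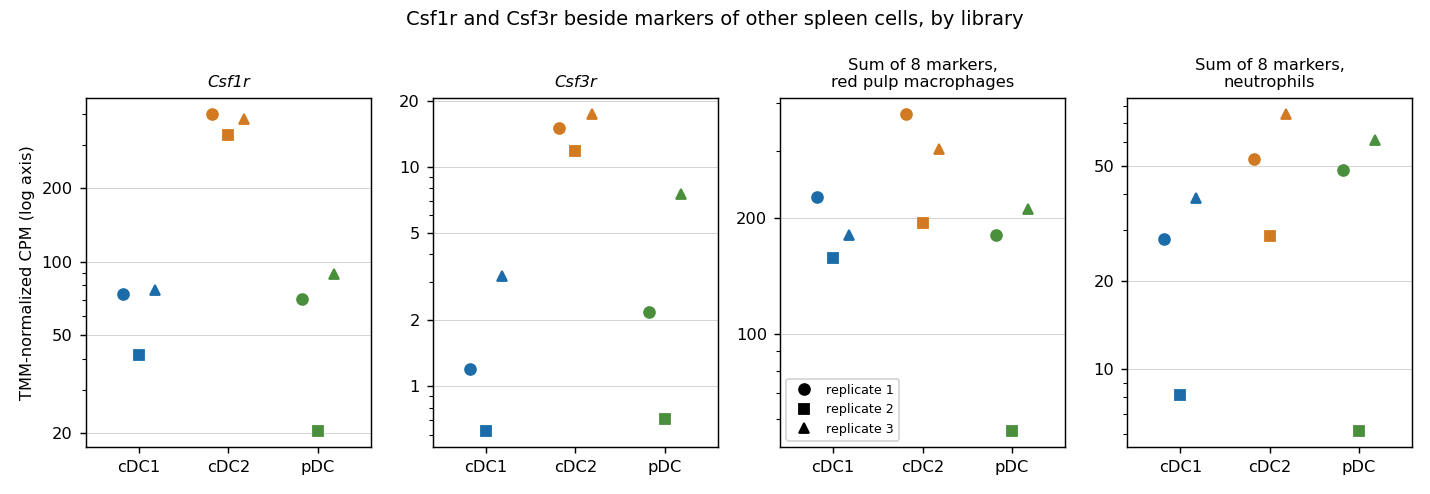
TMM-normalized CPM (log axes with separate scales) of Csf1r and Csf3r and the summed CPM of 8 red pulp macrophage and 8 neutrophil markers in each library, with colours for the subsets and symbols for the replicate numbers. Replicate 2 was the lowest library of each subset in all 4 panels, and cDC2 stood apart from the other subsets in Csf1r (329 to 401 CPM) and Csf3r (11.8 to 17.4 CPM), while its summed markers overlapped with those of the other subsets.

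Most ligand genes of these receptors had too few counts for a test, as did most genes listed. Of 15 ligand genes, 4 were tested, beside 35.3% of all genes listed. At most 3 counts in every library were found for 7 (Csf2, Il2, Il3, Il4, Il5, Il9 and Il21). In pDC against cDC1, 1 of the 4 was higher (Csf1) and 1 was lower (Il15), beside 24.3% higher and 24.4% lower of all genes tested. In pDC against cDC2, 0 were higher and 2 were lower (Flt3l and Il15), beside 22.5% and 23.3% of all genes, and in cDC2 against cDC1, 1 was higher (Flt3l) and 0 were lower, beside 12.7% and 11.7%. The medians over the 4 were 0.28, -0.47 and 0.27 on the log2 scale, beside 0.02, -0.01 and 0.03 over all genes tested. Flt3l, the FLT3 ligand, stood at 7.84 ± 1.52 CPM in cDC2 and 3.35 ± 0.580 in cDC1 (log2 1.23, SE 0.26, adjusted p = 0.00654), and at 3.73 ± 0.521 in pDC. Csf1 stood at 5.15 ± 1.41 CPM in pDC and 2.47 ± 0.886 in cDC1 (log2 1.05, SE 0.38, adjusted p = 0.0449).

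Of 8 chains that pair with the receptors above, 7 were tested. Against cDC1, 5 were higher in pDC and 0 lower (median 1.26), beside 24.3% and 24.4% of all genes tested. Against cDC2, 4 were higher in pDC and 1 lower (median 0.47), beside 22.5% and 23.3%. In cDC2, 4 were higher than in cDC1 and 0 lower (median 1.03), beside 12.7% and 11.7%. Il9r, the IL-9 partner of the gamma chain, reached 31.2, 36.1 and 20.5 CPM in pDC, at most 2.33 in cDC1 and at most 5.26 in cDC2, a log2 difference of 3.74 against cDC1 (SE 0.25, adjusted p = 1.84e-06) and 2.71 against cDC2 (SE 0.24, adjusted p = 1.13e-05). Il2ra, the IL-2 receptor alpha chain, stood at 6.28 ± 1.06 CPM in pDC, 2.84 ± 0.560 in cDC2 and 0.630 ± 0.327 in cDC1. It was higher in pDC by 3.25 against cDC1 (SE 0.42, adjusted p = 0.000146). Il21r followed the order of Il2rg. Its level was 152 ± 5.44 CPM in cDC2, next to 135 ± 0.084 in pDC, and only 28.7 ± 9.30 in cDC1. It was higher than in cDC1 by 2.40 in cDC2 (SE 0.20, adjusted p = 2.51e-05) and 2.24 in pDC (SE 0.20, adjusted p = 9.66e-06). Il2rb, the beta chain for IL-2 and IL-15, reached 4.75, 20.0 and 35.9 CPM in cDC2, so that replicate 1 lay within the range of the other subsets, and the NK cell marker Ncr1 reached 2.33, 6.51 and 10.4 CPM in the same libraries. Il2rb was lower in pDC than in cDC2 by -2.40 (SE 0.66, adjusted p = 0.0135), and the part of NK cells in this was not tested.

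Among the JAK and STAT proteins, which carry the signal of the cytokine receptors, all 11 genes were tested. For pDC against cDC1, 5 were higher and 2 lower (median 0.36), beside 48.6% of all genes called in either direction. For pDC against cDC2, 1 was higher and 2 lower (median -0.01), beside 45.8%, so that fewer JAK and STAT genes were called than the share over all genes. For cDC2 against cDC1, 7 were higher and 1 lower (median 0.56), beside 24.4%. Jak2, the kinase bound to the common beta chain, had its highest level in cDC2 (640 ± 54.3 CPM), followed by cDC1 (334 ± 41.3) and pDC (218 ± 19.2). It was lower in pDC than in cDC2 by -1.55 (SE 0.12, adjusted p = 5.23e-06), whereas the beta chains were higher there. Jak3, the kinase bound to the common gamma chain, followed Il2rg in its order, with 69.2 ± 6.37 CPM in cDC2, then 59.3 ± 1.57 in pDC and 32.5 ± 4.92 in cDC1. It was higher in cDC2 than in cDC1 by 1.09 (SE 0.13, adjusted p = 0.000219) and in pDC than in cDC1 by 0.87 (SE 0.13, adjusted p = 0.000346). Stat5b was also higher in pDC than in cDC1, by 0.66 (SE 0.10, adjusted p = 0.000514), as it was in cDC2, by 0.67 (SE 0.10, adjusted p = 0.0011). Between pDC and cDC2 the difference in Stat5b was -0.01 (adjusted p = 0.924). Stat4 stood at 46.4 ± 3.41 CPM in cDC2 and at 8.36 ± 0.709 and 9.70 ± 1.11 in cDC1 and pDC. It was higher in cDC2 than in cDC1 by 2.47 (SE 0.15, adjusted p = 4.38e-06) and lower in pDC than in cDC2 by -2.26 (SE 0.14, adjusted p = 1.27e-06). Stat2, a mediator of interferon signals, was higher in pDC by 1.51 against cDC1 (SE 0.28, adjusted p = 0.00159) and 0.95 against cDC2 (SE 0.28, adjusted p = 0.0192), although pDC and cDC2 libraries overlapped.

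Of 33 relay genes, which encode proteins below the receptors, 32 were tested. Between pDC and cDC1, 4 were higher in pDC and 8 lower (median 0.08), below the share of 48.6% called over all genes. Between pDC and cDC2, 6 were higher in pDC and 12 lower (median -0.17), beside 45.8% of all genes, and between cDC2 and cDC1, 9 were higher in cDC2 and 4 lower (median 0.20), beside 24.4%. Fyn, a kinase of the Src family, stood at 960 ± 142 CPM in pDC, 98.1 ± 0.944 in cDC1 and 91.6 ± 6.87 in cDC2, a log2 difference of 3.29 against cDC1 (SE 0.13, adjusted p = 6.42e-08) and 3.39 against cDC2 (SE 0.13, adjusted p = 8.85e-08). Src was the lowest in cDC2, where it stood at 2.18 ± 1.83 CPM against 11.9 ± 5.10 in cDC1 (log2 -2.41, SE 0.66, adjusted p = 0.0248). Its cDC2 libraries were at 3.92, 2.35 and 0.266 CPM, and the last of these held 5 counts. It was 2.37 higher in pDC than in cDC2 (SE 0.66, adjusted p = 0.0150). Pik3cb, a catalytic subunit of PI3 kinase, stood at 279 ± 13.3 CPM in cDC1 and 41.1 ± 0.390 in pDC (log2 -2.77, SE 0.091, adjusted p = 3.53e-08). Mapk3 and Pik3cd were higher in cDC2 than in cDC1, by 0.94 (SE 0.18, adjusted p = 0.00333) and 0.86 (SE 0.11, adjusted p = 0.000374).

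Genes that restrain the receptors numbered 18, and all were tested. In pDC against cDC1, 4 were higher and 5 lower (median 0.21), and in pDC against cDC2, 3 were higher and 5 lower (median -0.11), both near the 48.6% and 45.8% called over all genes. In cDC2 against cDC1, 4 were higher and 1 lower (median 0.32), beside 24.4% of all genes. Socs2, a feedback inhibitor induced through STAT5, reached 30.7, 17.1 and 17.1 CPM in cDC1, 36.2, 26.9 and 25.3 CPM in cDC2, and 1.09, 0.862 and 1.18 CPM in pDC. The pDC libraries lay far below all others, by a log2 difference of -4.37 against cDC1 (SE 0.31, adjusted p = 2.40e-06) and -4.81 against cDC2 (SE 0.31, adjusted p = 1.48e-06). Socs3, a feedback inhibitor of the G-CSF and gp130 receptors, ran the other way, at 15.0, 21.9 and 43.7 CPM in pDC, 2.62, 2.34 and 9.82 in cDC1 and 8.96, 6.37 and 9.94 in cDC2. It was higher in pDC by 2.48 against cDC1 (SE 0.58, adjusted p = 0.00575) and 1.67 against cDC2 (SE 0.56, adjusted p = 0.0335). Ptpn6, which encodes the phosphatase SHP-1, was highest in pDC (968 ± 97.0 CPM), followed by cDC2 (744 ± 69.7) and cDC1 (260 ± 33.2). It was higher than in cDC1 by 1.52 in cDC2 (SE 0.13, adjusted p = 2.79e-05) and 1.90 in pDC (SE 0.13, adjusted p = 1.84e-06). Spred1, an inhibitor of the RAS pathway, stood at 44.3 ± 3.29 CPM in cDC2, against 17.8 ± 3.45 in cDC1 (log2 1.31, SE 0.25, adjusted p = 0.00414) and 12.8 ± 5.11 in pDC (log2 of pDC against cDC2 -1.80, SE 0.26, adjusted p = 0.000313). Inpp5d, a lipid phosphatase, was lower in cDC2 than in cDC1 by -0.72 (SE 0.13, adjusted p = 0.00336).

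The list of genes that growth factor signals can induce held 10 genes, and all were tested. In pDC against cDC1, 2 were higher (Pim2 and Ccnd2) and 5 lower (median -1.09), beside 24.3% and 24.4% of all genes tested. In pDC against cDC2, 1 was higher (Pim2) and 7 lower (median -1.16), beside 22.5% and 23.3%, and in cDC2 against cDC1, 1 was higher and 1 lower (median 0.19), beside 24.4% in either direction. Genes that cell sorting is known to induce were also lower in pDC than elsewhere for part of their list: Egr1 ran from 11 to 64.3 CPM in pDC and from 82.2 to 460 in the conventional DC, and Hspa1a from 34.1 to 75 and from 309 to 544. Jun ran the other way at each replicate number, with 710, 772 and 1677 CPM in pDC, 515, 332 and 993 in cDC1 and 622, 703 and 1192 in cDC2. Fosb overlapped, at 194 to 325 CPM in pDC and 144 to 441 in the conventional DC. The 10 such genes summed to 1565 to 3990 CPM in pDC, 1957 to 6180 in cDC1 and 3142 to 6003 in cDC2, highest in replicate 3 of each subset, and their part in the levels of this list was not tested. Socs2, described above, had the largest difference. Cdkn1a, a cell cycle inhibitor, stood at 20.8 ± 4.39 CPM in cDC1 and 2.28 ± 0.814 in pDC (log2 -3.17, SE 0.34, adjusted p = 3.77e-05). Myc stood at 19.4 ± 1.10 CPM in cDC2 and 1.98 ± 0.625 in pDC (log2 -3.28, SE 0.25, adjusted p = 3.87e-06). Pim2, a survival kinase, was higher in pDC, with 95.4 ± 19.7 CPM in pDC, 12 ± 2.03 in cDC1 and 7.53 ± 1.33 in cDC2. It was higher in pDC by 3.00 against cDC1 (SE 0.20, adjusted p = 1.82e-06) and 3.67 against cDC2 (SE 0.21, adjusted p = 6.32e-07), and lower in cDC2 than in cDC1 by -0.67 (SE 0.20, adjusted p = 0.0339). Ccnd2, which encodes cyclin D2, stood at 76.0 ± 4.34 CPM in cDC2 and 8.79 ± 2.14 in cDC1 (log2 3.11, SE 0.20, adjusted p = 6.40e-06), and at 22.2 ± 3.59 in pDC, which was higher than in cDC1 by 1.34 (SE 0.19, adjusted p = 0.000269) and lower than in cDC2 by -1.77 (SE 0.19, adjusted p = 3.83e-05).

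**Figure D5:**
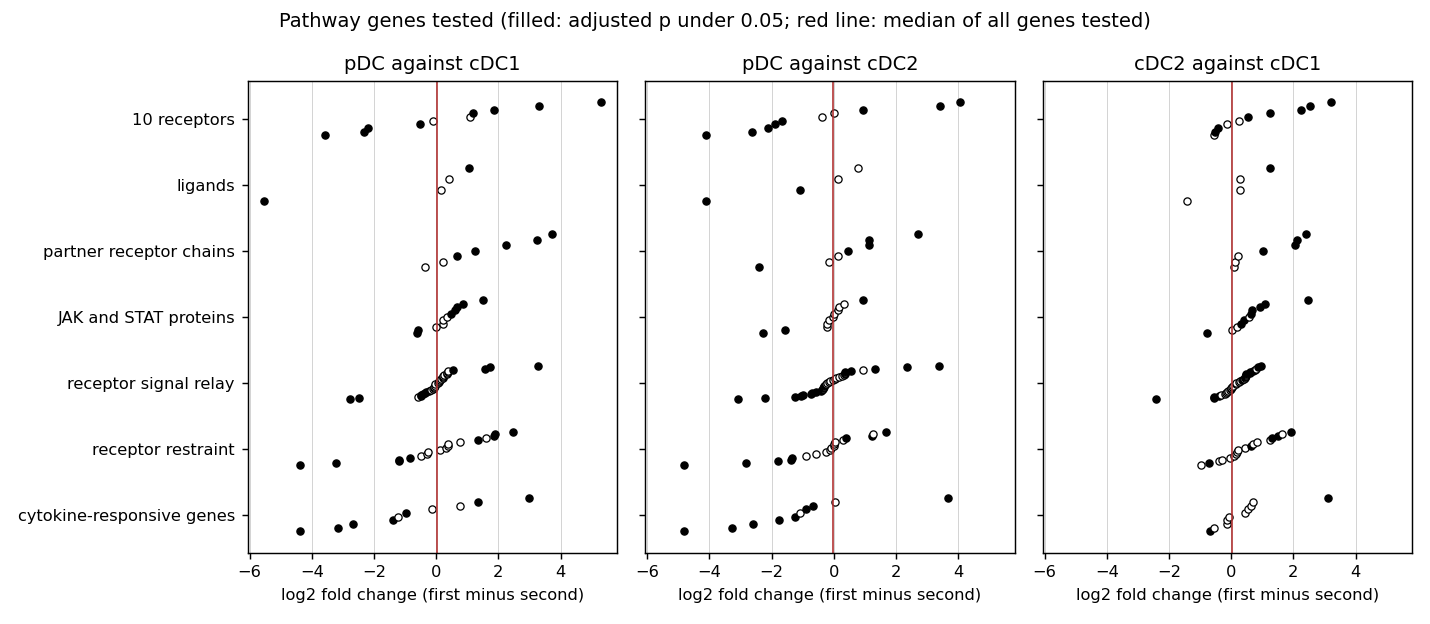
Log2 differences of the 10 receptors and of the genes tested on 6 pathway lists, in the 3 comparisons, with 1 point per gene spread vertically within its list; filled points passed an adjusted p of 0.05 in edgeR's test, and the red line marks the median of all genes tested. In pDC against cDC2, 7 of 10 cytokine-responsive genes lay below 0 and passed, and 1 (Pim2) lay above 0 and passed, beside 23.3% lower and 22.5% higher of all genes tested.

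The genes whose pattern over the 9 libraries was most like each receptor were taken from the 9626 other genes with a mean of at least 10 CPM in a subset, by Pearson's r of log2(CPM + 1). The libraries fall into 3 subsets, and libraries with the same number share a date code across them. A high r therefore says that the relative spacing of the subsets is much alike. It says nothing of the size of the difference, and subsets that lie close together can change places. For Csf2rb2 104 genes and for Il7r 68 genes had an r above 0.99. Flt3 was most like Clnk (r = 0.991) and Farp2 (0.991), which were higher in cDC1 than in the other subsets (20.4 and 25.5 CPM in cDC1). Csf1r was most like Emr1 (r = 0.985), the gene of the macrophage antigen F4/80, which stood at 344 CPM in cDC2 and 14.0 in each of the others. Slc16a3 (0.980) came next. Csf2ra was most like Rnf150 (0.999) and Grk5 (0.998), and Kit most like Ptpn22 (0.999) and Spc25 (0.998), all low in pDC.

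Csf2rb was most like Ncf1 (r = 0.997), a subunit of the phagocyte oxidase. Csf2rb2 was most like Hs3st1 (0.999), at 143 CPM in pDC and at most 1.16 in a conventional subset, and Lynx1 (0.998). Il7r was most like B3galnt1 (0.999) and Gimap9 (0.998). Csf3r was most like Anxa2 (0.9898) and Ccl9 (0.979), both highest in cDC2. Il2rg was most like Sirpa (0.993), a marker of cDC2 with means of 965 CPM in cDC2, 520 in pDC and 60.2 in cDC1, and Ccnd1 (0.9901), which encodes cyclin D1. Il15ra was most like Eif4a1 (0.992) and Tmem132a (0.9898).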

How the data were processed

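RNA-seq of sorted splenic cDC1, cDC2 and pDC was used, with 3 libraries per subset. The authors deposited raw read counts per gene, without normalization, from stranded libraries of polyadenylated RNA read from one end over 75 bases. The submitters' processing notes name STAR, SAMtools, featureCounts, MultiQC and mm10. Versions, annotation and strand setting are not given in the sources used here, and Degust is named in the study's methods without a statistical method or a block.

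The analysis used edgeR 4.0.16 in R 4.3.3. The filter filterByExpr (minimum count 10) left 13819 of 39179 genes, scaling used TMM factors, and one model held all 9 libraries with subset as its sole term. Contrasts were tested by quasi-likelihood, and Benjamini-Hochberg adjustment ran over every gene tested, with a threshold of 0.05. An SE is the size of the log2 difference over the square root of F. Levels per kilobase use the merged exons of GENCODE M21 (GRCm38), to which 37607 of the genes listed (95.99%) matched. The test was tried first on simulated data. Replicates are pools of spleens, so p-values measure the spread between pools.

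The 10 receptors, the pathway and marker lists and the motifs were chosen with earlier results of these data known. Every receptor is named. From each pathway list and comparison, the 3 genes past the threshold that differed most were named, if their mean was at least 5 CPM in the higher subset. Il3ra, Gm20489, Hmgxb3, single markers and the values of named genes in other comparisons are not covered by it and were picked once values had been seen. A few genes that these rules pick are not reported here. Of 9 red pulp macrophage markers, 8 were in the table by symbol, and Adgre1 is there under its older symbol Emr1. Libraries with the same number share a date code, and their deviations from the mean of their own subset correlated in all 9 pairs (mean r 0.403, range 0.266 to 0.543), so the numbers pair the samples. Alternatives included a block for replicate number, DESeq2 1.42.0, limma-voom (limma 3.58.1), scaling by library size only or by upper quartile, other filters, the 6 libraries of the subsets compared, a log2 difference of at least 1, summed beta chain copies, and each library or replicate number left out. Plots were made in matplotlib 3.10.9 (Python 3.11.15).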

Additional observations from a re-analysis of the deposited data

How the results depend on the processing

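Of 23 calls on the receptors, 17 kept their direction and their side of the threshold in all 20 alternatives of scaling, filter, test, block and left-out libraries: 8 of 8 in pDC against cDC1, 7 of 8 in pDC against cDC2 (not Csf3r) and 2 of 7 in cDC2 against cDC1 (Il7r and Il2rg). The replicate block gave 8, 9 and 8 receptors past the threshold, against 8, 8 and 7 without it, and it added Il2rg in pDC against cDC2 and Csf2rb in cDC2 against cDC1 and changed no other call on a receptor. Over all 13819 genes tested, the block gave 8094, 7663 and 4916 calls, against 6718, 6328 and 3370 without it. In cDC2 against cDC1, 4 of the 7 receptors also differed by a log2 of at least 1, and leaving out libraries gave from 2 (without replicate 1) to 7. Genes past the threshold on the pathway lists numbered 43 in pDC against cDC2, from 26 (without replicate 1 or 2) to 54, and 33 in cDC2 against cDC1, from 10 (without replicate 1; 17 without replicate 2) to 44. The fits without replicate 1 or 2 have 2 libraries per subset. Calls over all genes tested fell in them too. In pDC against cDC2 they fell from 6328 to 3585 without replicate 1 and to 3908 without replicate 2. In cDC2 against cDC1 they fell from 3370 to 1207 and to 1594. Signs changed for differences that had not passed. Flt3 in pDC against cDC2 became -0.01 with library size only (-0.0078) and with at least 10 counts in every library (-0.0118), and ran from -0.041 to 0.046 over the left-out libraries. Csf1r in pDC against cDC1 ran from -0.49 to 0.29 and Csf3r from -0.065 to 1.83. Csf2rb2 in cDC2 against cDC1 became 0.14 with the counts of both copies summed, where the value is that of the pair. Where no value above shows the cause, the cause was not tested. Scaling by library size only moved the median of all genes to 0.11 in pDC against cDC1 and 0.14 in cDC2 against cDC1. Il15 in pDC, Il2ra in cDC1 and Src in cDC2 had libraries at or near the floor of 3 counts, which limits their precision. Csf3r was above the floor but low and uneven, at 15 to 47 counts in cDC1 and 14 to 127 in pDC, which limits its precision too.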
